A study of Mus musculus with 8 samples.

Results

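The Frizzled receptors were followed in whole aortas as a family of 10 genes, Fzd1 to Fzd10, taken by gene name from the 23420 genes of the table. All 10 were listed, and 9 of them reached a mean of at least 10 normalized reads over the 8 libraries, as did 14931 genes in all; Fzd10 did not. The members were chosen by family name after the values of the comparison between the groups were known, in which Fzd4 had the smallest p of all genes, so the differences between the groups are given for the Frizzled genes as a description without a test. RNA came from the aortas of irradiated ApoE-/- mice in which pumps had released angiotensin II (1 µg/kg/min) for 28 days. The recipients were 6 weeks old when they were given fetal liver cells of embryonic day 14 donors, and recovered for 6 weeks before the infusion. In 4 mice (replicates A to D) the donor cells were Ntn1-/- ApoE-/-, and in 4 mice (replicates A to D) they were Ntn1+/+ ApoE-/-, called WT here, so that recipients and donors of both groups lacked ApoE and only the blood-forming cells of the first group lacked netrin-1. Each aorta was its own library. Vessel wall cells of the recipient kept Ntn1 in both groups, and the labels call the tissue abdominal aortic aneurysm for every mouse without giving the grade of each. The authors describe the WT group as prone to aneurysm and the Ntn1-/- group as protected. Donor genotype and extent of disease therefore cannot be told apart here.

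Frizzled proteins are receptors of the cell membrane whose cysteine-rich outer domain binds Wnt ligands. Together with the co-receptors Lrp5 or Lrp6 they pass the signal through Dishevelled to beta-catenin, and without these they act in planar cell polarity and in calcium-dependent signalling. In vessels Fzd4 is best known as the receptor for norrin, with Lrp5 and the tetraspanin Tspan12, in the endothelium of the retina and brain. All 10 genes held a single in-frame stretch of 18 bases for lysine, threonine, any 3 residues and tryptophan, the motif through which Frizzled receptors bind Dishevelled. The stretches are shown because they are the sequence that the family shares whatever its level in the aorta. They were read 5′ to 3′ from the reference transcripts of mm9, with the codons of the fixed residues in capitals, and that of Fzd8 is not printed:
Fzd1: AAGACActgaattccTGG
Fzd2: AAGACActgcactcgTGG
Fzd3: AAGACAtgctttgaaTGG
Fzd4: AAAACTcttcacacgTGG
Fzd5: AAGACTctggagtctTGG
Fzd6: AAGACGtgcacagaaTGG
Fzd7: AAGACCctgcagtcaTGG
Fzd9: AAGACTtttcagactTGG
Fzd10: AAGACCctgcagtccTGG
Fzd1, Fzd2 and Fzd7, the members with the most reads, ended 23 codons from the first base of this stretch. Fzd4 had 39 codons to its end, while the polarity receptors Fzd3 and Fzd6 had 165 and 212.

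The promoter of Fzd4 is shown because Fzd4 was the member whose groups lay apart. The 250 bases before its start are those of RefSeq (GRCm38.p6, chr7:89404116-89404365, plus strand), with GC boxes in capitals:
Fzd4: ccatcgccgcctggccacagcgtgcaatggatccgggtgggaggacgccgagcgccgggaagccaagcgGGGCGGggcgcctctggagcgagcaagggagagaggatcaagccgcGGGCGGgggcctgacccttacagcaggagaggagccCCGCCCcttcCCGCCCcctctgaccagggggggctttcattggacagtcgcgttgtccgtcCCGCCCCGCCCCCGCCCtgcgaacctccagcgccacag
The window matched the GC box GGGCGG at 7 positions on the 2 strands, some of them overlapping, and 32.7% of 32851 promoters held it at least once. Among the 6 members with a RefSeq promoter, Fzd5 had 9 matches, Fzd7 6, Fzd9 1, Fzd10 1 and Fzd1 0. No match to CTTTGAT or CTTTGAA, letters of the TCF/LEF motif, was found in any of these 6 windows on either strand, against 3.21% and 4.46% of all promoters. Searches for the ETS letters CCGGAAG, the E-box CACGTG and the AP-1 letters TGANTCA found none in the Fzd4 window either, and 6.91%, 6.02% and 6.75% of all promoters held them. These motifs were chosen after the values were seen.

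The libraries held 19879329 to 28202931 reads in genes, recovered as whole reads from the deposited values. In Ntn1-/- replicates B and C the 8 neuron markers summed to 13836 and 10996 normalized reads, against 4613 to 6171 in the other 6 libraries, and the 6 skeletal muscle markers to 6839 and 6799, against 212 to 2476. Log2 changes without these 2 libraries are given wherever a printed one turned its sign or moved by over 1.5 times. All 8 neuron markers had higher estimates in Ntn1-/- chimeras (median log2 change 1.22), as had all 6 skeletal muscle markers (median 0.78). Of the neuron markers, Nefl and Prph had every Ntn1-/- aorta above every WT aorta, and the others overlapped. All 6 liver markers had lower estimates in Ntn1-/- chimeras (median log2 change -2.47) and summed to 6299, 6397 and 7878 in WT replicates A, C and D, against 593 in WT replicate B and 367 to 1791 in the Ntn1-/- aortas. The 4 mesothelial markers had lower estimates too (median -0.74), with sums of 473 to 1084 in Ntn1-/- and 878 to 1699 in WT aortas, and the part of both lists in the results was not tested. In WT replicate B, whose liver markers lay within the Ntn1-/- range, Fzd4 was at 581 normalized reads. This was its highest WT value, and below every Ntn1-/- aorta. Nothing is read from this library, and the part of the liver markers in the Fzd4 values was not tested. Markers of smooth muscle, endothelium and fibroblasts were all detected. In whole aortas, fewer cells of a type and less RNA per cell cannot be told apart.

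Per kilobase of exon, 3 Frizzled genes made up most of the family. Fzd2 had 558 ± 149 normalized reads per kilobase (SD, n = 8 libraries), Fzd1 507 ± 78.1 and Fzd7 434 ± 93.0. Together they held 71.2% ± 2.46 of the Frizzled reads per kilobase in Ntn1-/- chimeras and 73.2% ± 1.60 in WT chimeras (SD, n = 4 each), and these shares overlapped. The order among the 3 was not fixed, since Fzd2 lay above Fzd1 in 4 of 8 libraries and Fzd1 above Fzd7 in 6. Below them the levels fell by a factor of 2.26 to Fzd4, at 192 ± 48.6 reads per kilobase, and Fzd8, at 177 ± 47.1. Fzd6 followed at 102 ± 20.2, Fzd5 at 60.4 ± 18.7, Fzd3 at 26.9 ± 5.07 and Fzd9, a receptor known for its part in bone formation, at 13.8 ± 3.03 (SD, n = 8 for each). Every step from Fzd7 down to Fzd10 was kept in 8 of 8 libraries, with the exception of that from Fzd4 to Fzd8, which was kept in 4. Fzd10 was represented by 2 to 11 reads per library, too few to compare the groups. It was the only member overlapped by another gene model, a pseudogene of the same name on the same strand. Whether this overlap lowered its count was not tested.

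**Figure D1:**
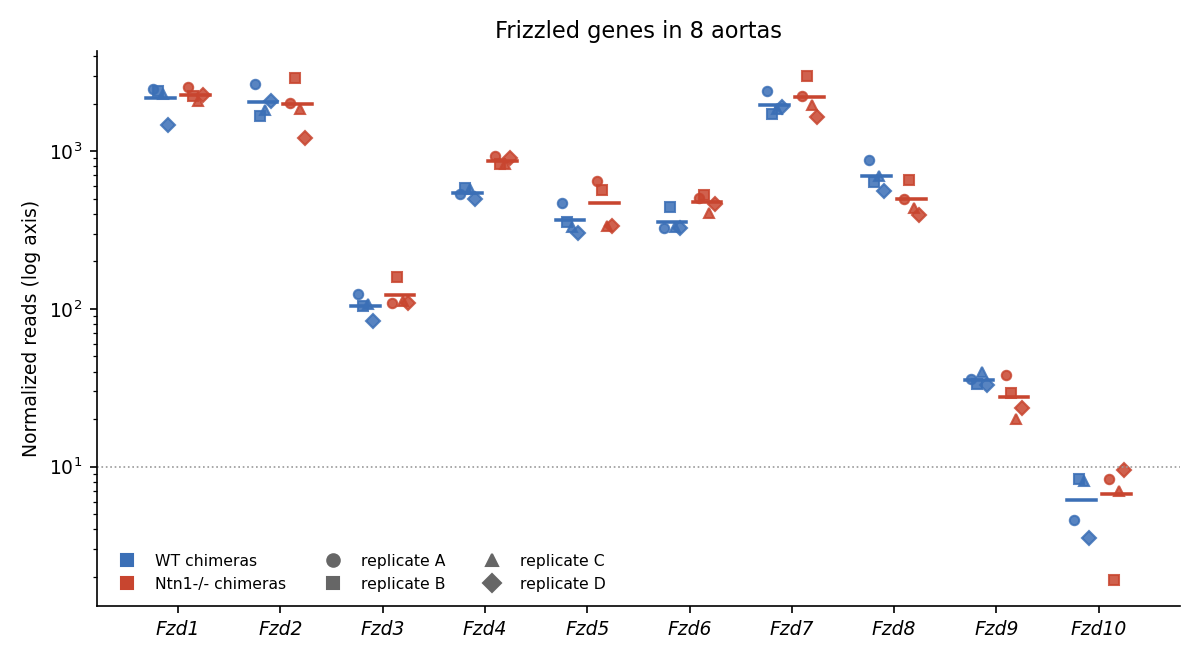
Normalized reads (log axis) of the 10 Frizzled genes in each aorta, with WT chimeras in blue, Ntn1-/- chimeras in red, a symbol for each replicate letter and a line at each group's mean; the dotted line is the minimum mean of 10. The 4 red points of Fzd4, at 826 to 928, lie above its 4 blue points, at 496 to 581, while at each other gene the colours overlap.

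Fzd4 was the member whose groups lay apart. It stood at 928, 828, 826 and 899.6 normalized reads in Ntn1-/- replicates A, B, C and D. In WT replicates A, B, C and D it stood at 532, 581, 571 and 496. Every Ntn1-/- aorta lay above every WT aorta, and the gap between the groups, from 581 to 826, was wider than the range within either. The means were 871 ± 51.5 and 545 ± 39.0 (SD, n = 4 each), a ratio of 1.60, and the log2 fold change was 0.68 (standard error, SE, 0.08). These values rest on 829 to 1117 reads in Ntn1-/- and 421 to 627 in WT libraries. Of the 9 members above the minimum, 1 had groups that did not overlap, as had 10.5% of all genes (5.13% with Ntn1-/- above and 5.34% with Ntn1-/- below), and nothing is read from this count because the comparison chose the family. Within the groups Fzd4 had the lowest coefficient of variation of the 9 in both, at 5.91% and 7.15%. A choice by the smallest p favours a small spread within groups and a wide gap between them, so nothing is read from either. Its 2 exons span chr7:96552876-96558620 of mm9, on the plus strand. No window of 50 bases in its transcript came within 2 mismatches of another Frizzled transcript, so reads of that length could not have been shared within the family.

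Fzd8 differed the other way. It had 494, 658, 435 and 393 normalized reads in Ntn1-/- replicates A to D and 879, 632, 696 and 557 in WT replicates A to D. The groups overlapped through Ntn1-/- replicate B, which exceeded WT replicates B and D. The means were 495 ± 116 and 691 ± 137 (SD, n = 4 each), with a log2 change of -0.49 (SE 0.19), and of -0.63 (SE 0.19) without Ntn1-/- replicates B and C.

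Fzd4 and Fzd8 therefore changed places in the order of the family. Per kilobase Fzd4 was above Fzd8 in 4 of 4 Ntn1-/- aortas, by factors of 1.71, 1.14, 1.72 and 2.08 in replicates A to D. It was below Fzd8 in 4 of 4 WT aortas, at 0.55, 0.83, 0.75 and 0.81 of its level. As a share of all Frizzled reads per kilobase, Fzd4 made up 11.3% ± 2.17 in Ntn1-/- and 7.47% ± 1.01 in WT chimeras, and Fzd8 6.87% ± 0.459 and 10.2% ± 0.668 (SD, n = 4 each). Neither share overlapped between the groups. The sum of the 10 genes did overlap, at 7352 to 10864 normalized reads in Ntn1-/- and 7217 to 9924 in WT aortas. These are measures of the same comparison and carry no test.

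**Figure D2:**
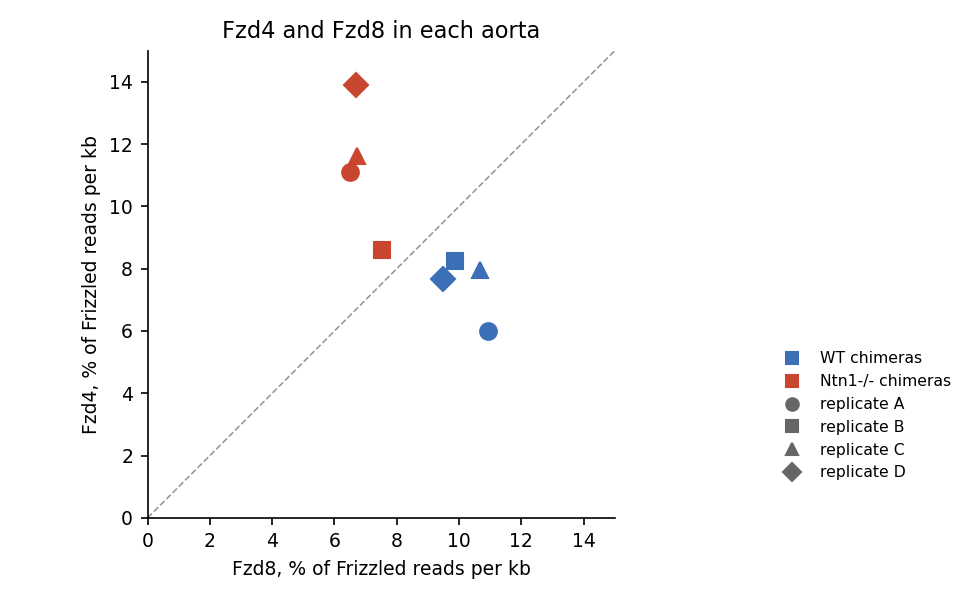
Share of the Frizzled reads per kilobase held by Fzd8 (x axis, percent) and by Fzd4 (y axis, percent) in each aorta, with the dashed line at equal shares. The 4 Ntn1-/- aortas (red) lie above the line, with Fzd8 at 6.50% to 7.54%, and the 4 WT aortas (blue) below it, with Fzd8 at 9.49% to 10.9%.

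Fzd6, a receptor of planar polarity known from hair patterning, had 506, 529.6, 406 and 463 normalized reads in Ntn1-/- replicates A to D and 326, 441, 332 and 324 in WT replicates A to D. The overlap came from WT replicate B alone, which lay above Ntn1-/- replicate C. The log2 fold change was 0.42 (SE 0.13). Fzd3, its close relative with a part in axon guidance, had 159 normalized reads in Ntn1-/- replicate B and 109, 112 and 109 in A, C and D, against 124, 105, 107 and 83.7 in WT replicates A to D. Its highest library was the one with the highest neuron markers, and without Ntn1-/- replicates B and C its log2 fold change went from 0.21 (SE 0.18) to 0.07 (SE 0.19). The part of the neuron markers in it was not tested. Fzd5, a receptor needed for vessel growth in the mouse yolk sac and placenta, was high in Ntn1-/- replicates A and B, at 649 and 565, and at 333 and 336 in C and D, within the WT range of 300.5 to 471. Its log2 fold change was 0.33 (SE 0.25). Fzd9 ranged from 19.9 to 38.2 normalized reads in Ntn1-/- and 33.0 to 39.6 in WT aortas, with a log2 change of -0.38 (SE 0.23), or -0.23 (SE 0.265) without Ntn1-/- replicates B and C.

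The abundant members Fzd1, Fzd2 and Fzd7 showed small differences between the groups. Fzd1 was at 2551, 2216, 2081 and 2274 normalized reads in Ntn1-/- replicates A to D and at 2463, 2401, 2311 and 1454 in WT replicates A to D. Its log2 fold change of 0.11 (SE 0.17) was -0.07 without WT replicate D, the lowest library, and 0.19 (SE 0.22) without Ntn1-/- replicates B and C. Fzd7 had means of 2206 ± 576 and 1965 ± 308 (SD, n = 4 each), with a log2 change of 0.14 (SE 0.18) that was -0.01 without Ntn1-/- replicate B, its highest library, and -0.03 without Ntn1-/- replicates B and C. Fzd2 had means of 1989.9 ± 692 and 2056 ± 446 (SD, n = 4 each), with a log2 change of -0.09 (SE 0.25) that was 0.13 without Ntn1-/- replicate D, 0.04 without WT replicate A and -0.37 (SE 0.25) without Ntn1-/- replicates B and C. The 3 transcripts resemble each other, and 5.64% of the 50-base windows of Fzd1, 5.56% of those of Fzd2 and 1.85% of those of Fzd7 came within 2 mismatches of another member, so a small part of their reads could have been placed at the wrong one or left out.

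Across libraries Fzd2 moved with the smooth muscle markers. From the highest to the lowest library it was at 2887 normalized reads in Ntn1-/- B, 2678 in WT A, 2061 in WT D, 2025 in Ntn1-/- A, 1838 in Ntn1-/- C, 1822 in WT C, 1662 in WT B and 1209 in Ntn1-/- D. The sum of 8 smooth muscle markers, among them Acta2 and Myh11, stood in almost the same order, from 836930 in Ntn1-/- B to 321336 in Ntn1-/- D, with WT D and Ntn1-/- A exchanged. Per 1000 normalized reads of these markers Fzd2 had 3.14 to 3.78 in the 8 libraries, a span of 1.20 from lowest to highest, while Fzd2 alone spanned 2.39. This was the narrowest of the 27 ratios formed between the 9 members and the smooth muscle, endothelial and fibroblast markers, and it was picked out after the values were seen. Fzd7 too stood in almost the order of these markers, with Ntn1-/- C and WT D exchanged. Its ratio to them spanned 1.72, against 1.83 for Fzd7 alone. With each group's mean taken off, Fzd2 and Fzd7 had the highest Pearson's r of the 36 pairs of members, at 0.98. The ratio of Fzd2 to Fzd7 spanned 1.50. The points share their libraries, and the groups overlapped in the marker sum, at 321336 to 836930 in Ntn1-/- and 476724 to 794743 in WT aortas.

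Fzd4 did not move with these markers. Inside each group it moved with the sum of the fibroblast markers, of which the collagen genes Col1a1 and Col1a2 made up 63.3% to 76.4%, and this too was noticed after the values were seen. Among WT aortas the 7 fibroblast markers summed to 286719 and 291820 in replicates B and C, where Fzd4 was highest, to 234809 in A and to 177868 in D, where it was lowest. Among Ntn1-/- aortas they summed to 230790 and 259334 in replicates A and D, where Fzd4 was highest, and to 153346 and 179346 in B and C. Its genes did not all move this way: only 3 of its 7 genes (Col1a1, Col1a2 and Pi16) had their 2 highest libraries where Fzd4 had them in both groups, while Pdgfra was lowest in Ntn1-/- replicate A, at 1084, and highest in B, at 1762. Between the groups the marker sums overlapped, and 6 of the 7 estimates were lower in Ntn1-/- chimeras (median log2 fold change -0.25). Per 1000 normalized reads of these markers Fzd4 had 3.47 to 5.40 in Ntn1-/- and 1.96 to 2.79 in WT aortas, and the groups did not overlap. The 10 endothelial markers had 7 higher and 3 lower estimates with a median of 0.05, and summed to 22181 to 30245 in Ntn1-/- and 23569 to 26979 in WT aortas. Per 1000 of them Fzd4 had 28.0 to 41.8 in Ntn1-/- and 18.4 to 22.6 in WT aortas, again without overlap. Per 1000 of the smooth muscle markers it had 0.99 to 2.80 and 0.67 to 1.22, and the groups overlapped. The groups of Fzd4 alone lay apart, which favours ratios that lie apart, so nothing is read from these ratios. The part of these cell types in the Fzd4 difference was not tested. The 7 macrophage markers had 7 lower estimates (median -0.29) and sums that overlapped, and their part in the Fzd4 difference was not tested. Without Ntn1-/- replicates B and C the log2 fold change of Fzd4 was 0.75 (SE 0.10).

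**Figure D3:**
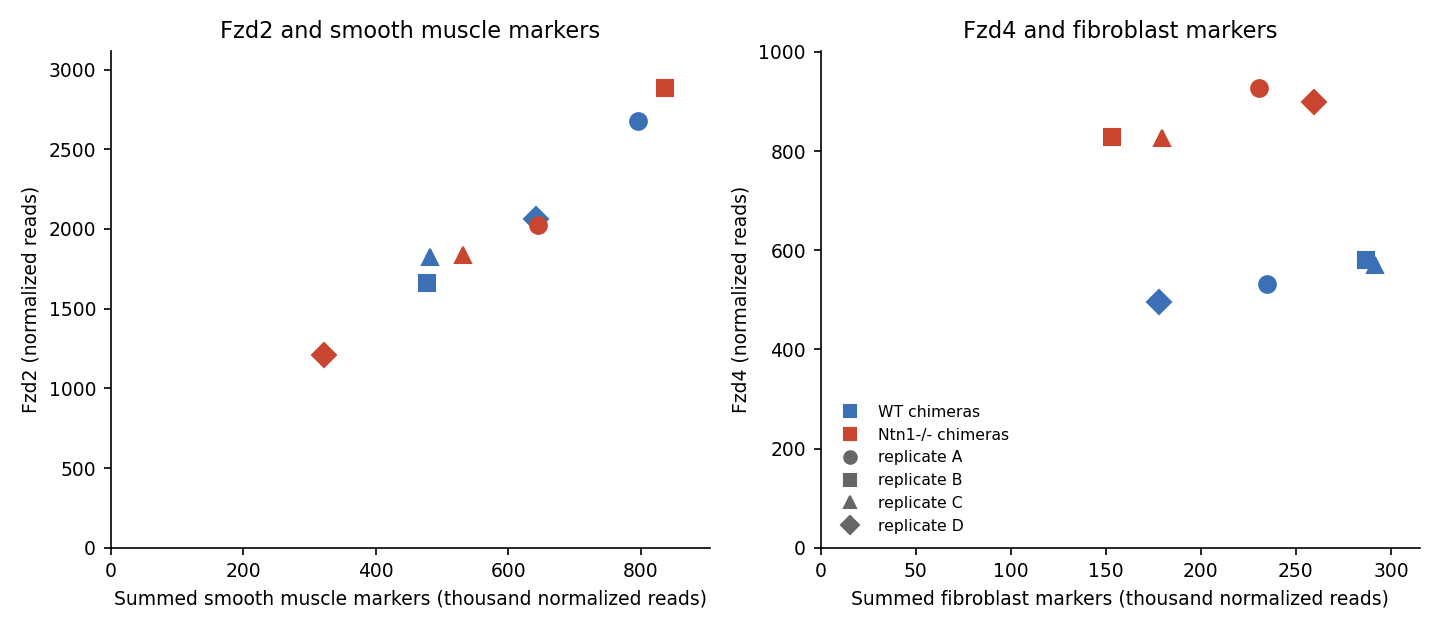
Normalized reads of Fzd2 against the summed smooth muscle markers (left) and of Fzd4 against the summed fibroblast markers (right), with the x axes in units of 1000 normalized reads, with WT chimeras in blue and Ntn1-/- chimeras in red. The 8 points of Fzd2 rise together from 1209 to 2887 whatever the group, while those of Fzd4 form 2 bands, at 826 to 928 and at 496 to 581.

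Gene structure ran along with the estimates. The 4 members with more than 1 exon, Fzd3, Fzd4, Fzd5 and Fzd6, had a GC content of 43.7% to 52.7% and log2 fold changes of 0.21 to 0.68. The 5 measured members with 1 exon, Fzd1, Fzd2, Fzd7, Fzd8 and Fzd9, had a GC content of 54.6% to 62.2% and log2 fold changes of -0.49 to 0.14. An offset for transcript length and GC content in each library, in edgeR, left Fzd4 at 0.64 (0.68 without the offset) and Fzd8 at -0.42 (-0.48 without). It took Fzd6 from 0.42 to 0.34, Fzd5 from 0.37 to 0.27, Fzd3 from 0.22 to 0.09 and Fzd9 from -0.34 to -0.22. Fzd2 went from -0.05 to 0.0050, Fzd7 from 0.17 to 0.16 and Fzd1 from 0.08 to 0.10. The split by exons was noticed after the values were seen. Over the 9 members the median log2 fold change was 0.14, with 6 higher and 3 lower estimates (0.07 without Ntn1-/- replicates B and C), against -0.01 over all 14931 genes, of which 7104 were higher and 7827 lower.

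**Figure D4:**
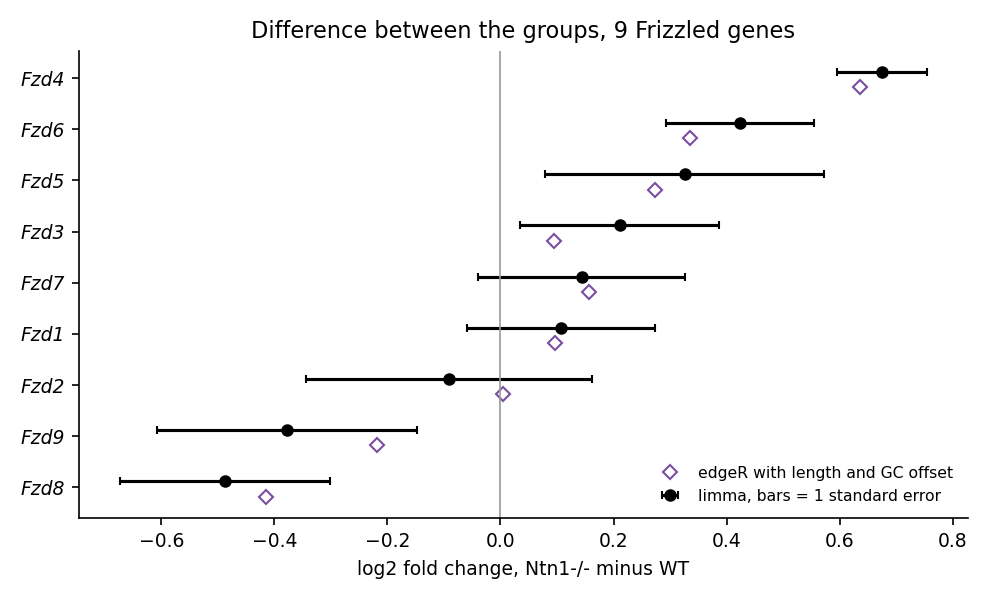
Log2 fold change (Ntn1-/- minus WT) of the 9 Frizzled genes with a mean of at least 10 normalized reads, from limma with bars of 1 SE (black) and from edgeR with an offset for transcript length and GC content (open purple diamonds). Fzd4 stands highest at 0.68 in limma and 0.64 with the offset, and Fzd8 lowest at -0.49 and -0.42.

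The genes whose pattern was most like that of Fzd4 were named by Pearson's r over the 8 libraries on the log2 scale, as a description. These were the transcription factor Ets1 (0.99), Odf2l (0.98), Pkd2l2 (0.98), Gtf2a1 (0.97) and Epb4.1l2 (0.97). Their groups did not overlap either, which a choice by a high r with Fzd4 favours. Ets1 was at 1125 to 1201 normalized reads in Ntn1-/- and 863 to 947 in WT aortas. Once the mean of each group was taken off, so that the difference between the groups no longer counted, the genes most like Fzd4 were Cpxm2, Heatr3, Wisp1, Rian and Mrc2 (r from 0.98 to 0.99), and their groups overlapped. Wisp1, a matricellular gene known as a target of Wnt signalling, was at 736 and 586 in Ntn1-/- replicates A and D and at 244 and 283 in B and C, and at 678 and 529 in WT replicates B and C, 351 in A and 189.7 in D. Cpxm2, Heatr3, Rian and Mrc2 were likewise highest in Ntn1-/- replicates A and D and in WT replicates B and C. Wisp1 shared this pattern with the others, and a choice by a high r with Fzd4 favours it in all of them. Nothing is read from it. Of the other Frizzled genes, Fzd6 was most like Fzd4 over all libraries, at 0.84, and Fzd8 least, at -0.68, values that include the difference between the groups. With the group means taken off, Fzd1 was most like it, at 0.77, Fzd2 least, at -0.48, and Fzd8 was at -0.08. Many other genes were more like Fzd4, as Fzd6 had rank 397 over all libraries and Fzd1 rank 983 with the group means taken off.

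Of the other genes of the pathway, 91 were listed and 78 were measured, 46 with higher and 32 with lower estimates in Ntn1-/- chimeras and a median log2 fold change of 0.09. In limma 0 of the 78 passed an adjusted p of 0.05, as did 0% of all genes, and 4 had an unadjusted p under 0.05, all higher, against 15.6% of all genes (8.37% higher and 7.25% lower). edgeR called 0 of the 78 and 0% of all genes, of which 16.5% had an unadjusted p under 0.05 there. DESeq2 called 2 of the 78 against 3.63% of all genes (2.16% higher and 1.47% lower). The pathway genes were thus called no more often than genes at large. Both genes called by DESeq2 were higher and also had groups that did not overlap. Apc, a scaffold of the complex that degrades beta-catenin, was at 942 to 1304 normalized reads in Ntn1-/- and 778 to 882 in WT aortas (log2 fold change 0.46, adjusted p = 0.248 from limma and 0.0196 from DESeq2). Celsr2, a cadherin that works with Frizzled receptors in planar polarity, was at 307 to 419.5 and 268 to 305 (log2 fold change 0.42, adjusted p = 0.248 from limma and 0.0421 from DESeq2).

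Among ligands 0 of 12 measured genes had an unadjusted p under 0.05 in limma. Ndp, which encodes norrin, was at 14.7 to 59.0 normalized reads in Ntn1-/- and 9.33 to 73.7 in WT aortas. Of the Wnt genes, those with the smallest p were Wnt4, with a log2 change of -0.49 (SE 0.24), Wnt16, at 0.34 (SE 0.29), Wnt11, at -0.28 (SE 0.25), and Wnt2, at -0.50 (SE 0.48). Without Ntn1-/- replicates B and C, Wnt11 was at -0.09 (SE 0.26) and Wnt2 at 0.35 (SE 0.29). For Wnt release the acyltransferase Porcn had a log2 change of -0.23 (SE 0.10) and the carrier Wls of 0.10 (SE 0.14), or 0.27 (SE 0.15) without those libraries. None of the 9 co-receptors and receptor partners reached an unadjusted p of 0.05 either. Lrp5, the co-receptor of Fzd4 for norrin, had means of 2431 ± 263 and 2478 ± 179 (SD, n = 4 each), and Tspan12 of 1160.2 ± 328 and 967 ± 224. Ror1, a receptor kinase for Wnt5a, had a log2 change of 0.88 (SE 0.40), Lrp6 of 0.18 (SE 0.11), Reck of 0.27 (SE 0.21) and Ptk7 of -0.35 (SE 0.32), or -0.17 (SE 0.40) without Ntn1-/- replicates B and C.

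The secreted antagonists, several of which carry a Frizzled-like cysteine-rich domain, gave 0 of 12 genes with an unadjusted p under 0.05. Sfrp2 was at 6664 to 7342 normalized reads in Ntn1-/- and 7071 to 10165 in WT aortas, while Sostdc1, Sfrp5 and Dkk1 had log2 fold changes of 0.88 (SE 0.43), 0.70 (SE 0.34) and 0.94 (SE 0.53). These estimates rested largely on Ntn1-/- replicates B and C, where Sfrp5 was at 565 and 401 normalized reads against 181 and 248 in A and D, and Sostdc1 at 134 and 108 against 31.6 and 59.0. Without both libraries Sostdc1 was at 0.15 (SE 0.35), Sfrp5 at 0.12 (SE 0.25) and Dkk1 at 0.34 (SE 0.62) on the log2 scale. Of the 7 measured genes of receptor turnover, which set how long Frizzled stays at the surface, Lgr4 had a log2 change of 0.32 (SE 0.15), Rspo1 of -0.15 (SE 0.19), Rspo2 of -0.48 (SE 0.61) and the ubiquitin ligase gene Znrf3 of 0.11 (SE 0.16). Without Ntn1-/- replicates B and C these were 0.20 (SE 0.15) for Lgr4, -0.35 (SE 0.21) for Rspo1, 0.33 (SE 0.61) for Rspo2 and 0.02 (SE 0.20) for Znrf3. Of the 15 transducers, 9 had higher and 6 lower estimates, and the Dishevelled gene Dvl3 had a log2 change of 0.43 (SE 0.18), the kinase gene Csnk1a1 of 0.21 (SE 0.10) and the scaffold gene Axin1 of -0.13 (SE 0.07). Of the 11 polarity genes, 8 had higher estimates, among them Celsr3 at 0.64 (SE 0.24) and Celsr1 at 0.44 (SE 0.25), and Vangl2 was at -0.69 (SE 0.38). Without the same libraries Celsr3 was at 0.29 (SE 0.24) and Celsr1 at 0.15 (SE 0.23).

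Genes that beta-catenin signalling induces gave no call. Of 9 measured targets 7 had higher and 2 lower estimates, with a median of 0.12 and 0 at an unadjusted p under 0.05. Axin2, the target most widely used as a readout of the pathway, was at 179, 147, 236 and 254 normalized reads in Ntn1-/- replicates A to D and at 143, 214, 199 and 137 in WT replicates A to D. The groups overlapped, and the log2 fold change was 0.23 (SE 0.22). Tnfrsf19 had a log2 change of 0.80 (SE 0.36), Tcf7 of 0.56 (SE 0.42) and Lef1 of 0.34 (SE 0.42). Without Ntn1-/- replicates B and C, Tnfrsf19 was at 0.40 (SE 0.41), Tcf7 at 0.02 (SE 0.45) and Lef1 at -0.22 (SE 0.44). Tcf7 was at 65.65, 177, 219 and 128 in Ntn1-/- replicates A to D and 147, 61.2, 119 and 62.5 in WT. The thymocyte marker Rag1 was at 7.48, 58.0, 68.8 and 26.9 and at 31.1, 0, 0 and 0. The T cell and thymocyte markers had 4 higher and 2 lower estimates and sums that overlapped. Their part in Tcf7 and Lef1 was not tested. Sox17, which norrin and Fzd4 induce in retinal endothelium, had means of 283 ± 69.0 and 271 ± 50.2 (SD, n = 4 each). Smo, the hedgehog signal transducer of the same receptor class, had means of 1689 ± 332 and 1690.0 ± 299 (SD, n = 4 each).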

How the data were processed

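Libraries of 8 aortas, 4 per group, were read from a single end over 50 nucleotides. Alignment by the authors used TopHat 2.0.9 and mm9 (2 mismatches allowed); the authors then counted reads per gene with featureCounts and divided the counts by DESeq2 size factors; this normalized signal is what was deposited. The version, annotation and strand setting of the counting are not given in the sources used here. The deposited fold changes, p-values and pathway scores of the authors' own comparison were not used.

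Each library divided by its smallest step gave whole reads for 100% of 187360 values (tolerance 0.001). limma 3.58.1 (eBayes with a trend) was run on log2(value + 1) for those genes that averaged 10 or more, which understates the fold changes of low genes, with Benjamini-Hochberg adjustment over all 14931 genes and a threshold of 0.05. edgeR 4.0.16 and DESeq2 1.42.0 on the recovered reads (R 4.3.3), other pseudocounts, no filter, leaving out libraries, a replicate block and a length and GC offset (13846 genes, 92.7%) were alternatives. The scripts were tested on simulated data. Exon lengths, positions and transcripts came from an mm9 annotation (GENCODE M1), and promoters from RefSeq; levels between genes were compared per kilobase of exon. All 91 pathway symbols were matched, some through synonyms. Genes were named by a rule: the 10 members, up to 4 genes with the smallest p of each pathway list, and the 5 genes most like Fzd4. Ndp, Lrp5, Tspan12 and Sox17 were named beyond it, for their known part in Fzd4 signalling. The members and lists were chosen with earlier results of these data known. The labels list 4 separate samples a group and say nothing of litters or extraction days.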

Additional observations from a re-analysis of the deposited data

Results flagged for a closer look

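An extreme library, far from its 3 companions, was found in 3 of the 20 sets of 4 values (each of the 10 genes in each group); about 1 in 20 such sets would show this by chance. Fzd1 was at 1454 normalized reads in WT replicate D, against 2311 to 2463 in the other WT aortas. Fzd3 was at 158.8 normalized reads in Ntn1-/- replicate B, against 109 to 112 in the other Ntn1-/- aortas. Fzd6 was at 441 normalized reads in WT replicate B, against 324 to 332 in the other WT aortas.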

How the results depend on the processing

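Under the 18 alternatives Fzd4 kept a log2 fold change between 0.63 and 0.75; the ranges were 0.34 to 0.53 for Fzd6, 0.15 to 0.47 for Fzd5, 0.07 to 0.30 for Fzd3, -0.63 to -0.37 for Fzd8 and -0.54 to -0.22 for Fzd9, with no change of sign. The sign turned for Fzd1 without WT replicate D (-0.072), for Fzd2 with the length and GC offset (0.0050), without Ntn1-/- replicate D (0.13) and without WT replicate A (0.04), and for Fzd7 without Ntn1-/- replicate B (-0.014) and without Ntn1-/- replicates B and C (-0.029), the last chosen after seeing the data. With each library left out in turn, Fzd1 ran from -0.072 to 0.18, Fzd2 from -0.29 to 0.13 and Fzd7 from -0.014 to 0.28. Over all 18 alternatives Fzd2 ran from -0.37, without Ntn1-/- replicates B and C, to 0.13. The cause was not tested for those of a left-out library. The median over the 9 members ran from 0.07 to 0.26. The difference in the Fzd4 share of Frizzled reads, 3.31 percentage points, ran from 2.55 to 4.09 when a library was left out. DESeq2 called 2 pathway genes and 542 genes in all, while the other alternatives called 0 of either. Without the minimum mean the groups did not overlap at 1667 genes instead of 1563. With the replicate letter as a replicate block the log2 fold change of Fzd4 was 0.68 (standard error 0.10) and 0 pathway genes and 0 genes in all were called. The deviations of same-lettered libraries from their group means correlated with r from -0.304 to 0.151. This gave no sign that the letters pair the mice. It cannot exclude pairing, since the deviations also hold the tissue differences between libraries. With 4 mice per group, differences of the size of those in Fzd1, Fzd2 and Fzd7 are within the spread between aortas, and Fzd10 could not be compared at its depth.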
